A study of Astyanax mexicanus with 6 samples.

Results

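The genes that carry fatty acids through activation and β-oxidation, the stepwise removal of acetyl units from a fatty acid, were examined in 2 fish cell lines. Members were taken by name. They are all genes of the table whose symbol begins as the acyl-CoA dehydrogenases (acad), carnitine palmitoyltransferases (cpt1 and cpt2), hydratases and hydroxyacyl-CoA dehydrogenases (hadh, echs, echdc, ehhadh), isomerases and dienoyl-CoA reductases (eci, decr), thiolases (acaa, acat), thioesterases (acot), acyl-CoA and acetyl-CoA synthetases (acsl, acss), acyl-CoA oxidases (acox), electron transfer flavoproteins (etf) or peroxins (pex). The rule found 73 of the 27420 genes in the table, under 72 symbols, because decr2 named 2 genes. Placed by gene name with the mammalian proteins as a guide, 28 members were counted as mitochondrial and 23 as peroxisomal. The other 22 were counted as cytosolic, shared by both organelles or of other kinds.

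SFL and CFL are lines derived from the livers of Astyanax mexicanus of about 150 days, SFL from surface fish and CFL from the Pachón cavefish. Bulk polyA RNA-seq was made from 3 libraries of SFL, with 1 at passage 45 and the others at passage 46, and from 3 libraries of CFL, with 1 at passage 50 and the others at passage 51. Both lines grew from clonal populations, the Pachón fish alone had been starved before dissection, and the study describes CFL as hyperdiploid. Line, clone, passage and karyotype therefore cannot be told apart, and p-values measure the spread between libraries of a line and not between fish. The labels do not say whether libraries of the same passage came from separate cultures.

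In mitochondria, long-chain fatty acids are first joined to coenzyme A by acyl-CoA synthetases and then pass the inner membrane as carnitine esters. Acyl-CoA dehydrogenases, hydratases, hydroxyacyl-CoA dehydrogenases and thiolases then release acetyl-CoA in repeated rounds, and the electron transfer flavoprotein hands electrons to the respiratory chain. Peroxisomes run a related path that starts with acyl-CoA oxidases, makes hydrogen peroxide and handles very long and branched chains, and peroxins build these organelles. In liver the mitochondrial path supplies energy in fasting, and its acetyl-CoA also feeds ketone body synthesis.

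Abundance was deposited as TPM, a transcript abundance scaled by gene length and to a sum of 1000000 per library, so levels can be set beside each other between genes, while depth is unknown. A library held 13254 to 13721 genes with at least 1 TPM. In these bulk libraries fewer cells of a type and less RNA per cell cannot be told apart. Of 19 hepatocyte marker genes, 3 had at least 1 TPM in all SFL libraries and tat alone did so in all CFL libraries. Their summed level was 12.01 to 21.98 TPM in SFL, against 1.87 to 2.92 TPM in CFL, with ttr at 0 in all libraries and hnf4a and fabp10a at most 0.20 TPM. Opposite to that sum, tat had 0 to 0.17 TPM in SFL and 1.12 to 1.83 TPM in CFL, and cyp7a1 had 0 to 0.03 TPM in SFL and 0.12 to 0.35 TPM in CFL. By these genes hepatocytes were thus hardly marked in either line. Other liver evidence of the study, such as alanine aminotransferase activity in both lines, was not examined here. Of 10 biliary and epithelial marker genes, 6 had at least 1 TPM in all libraries of each line, and their sum was 7876 to 11369 TPM in SFL, against 1451 to 1798 TPM in CFL. That sum was mostly keratin, and epcam and sox9b were at most 0.03 TPM. Endothelial markers, 5 genes of which kdrl alone reached 1 TPM in all libraries of either line, summed to 75.8 to 89.1 TPM in SFL and 52.4 to 71.3 TPM in CFL, and 6 macrophage and blood markers to at most 1.45 TPM. The 9 stellate and fibroblast markers split, with pdgfra and pdgfrb at 0.26 to 1.47 TPM in SFL and 8.95 to 23.8 TPM in CFL, and col1a1a at 194 to 386 TPM in SFL and 43.2 to 102.2 TPM in CFL. The gene hnf1bb of the biliary list ran the other way, at 2.29 to 12.3 TPM in SFL, against 163 to 209.7 TPM in CFL. The hepatocyte, biliary and endothelial sums were thus larger in SFL, as most called members were, though not every gene of these lists, and their part in the results was not tested.

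Most members were expressed, and those that differed were more often higher in SFL. At least 1 TPM was found in all 6 libraries for 59 of 73 members, and 5 were under 1 TPM in all. With genes kept when any library reached 0.2 TPM, 71 members could be tested, and acsl5 and pex5lb could not. On log2(TPM + 1) with limma, 13 members were called higher in SFL, 18.3% of the tested members beside 11.7% of all 18489 genes tested, where a call needed both an adjusted p below 0.05 and a 2-fold difference on that scale. In the other direction 4 members were called higher in CFL, 5.63% beside 8.88% of all genes. The remaining 54 tested members were not called. A gene under 1 TPM in all libraries cannot reach 2-fold on log2(TPM + 1), and 2938 of all genes tested were that low. The shares of members and of all genes were not matched for level. The median log2 fold change, SFL over CFL, was 0.38 over the members and 0.07 over all genes tested. With the libraries scaled by their median ratios those medians were 0.36 and 0.01. All 3 SFL libraries stood above all 3 CFL libraries for 29 members, 40.8% beside 29.8% of all genes, and all CFL libraries stood above all SFL libraries for 8, beside 23.1% of all genes. The lines overlapped for 34 members. An adjusted p below 0.05 at any fold was reached by 26 members with higher SFL values and 5 with higher CFL values, where all genes gave 19.5% and 15.2%.

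**Figure D1:**
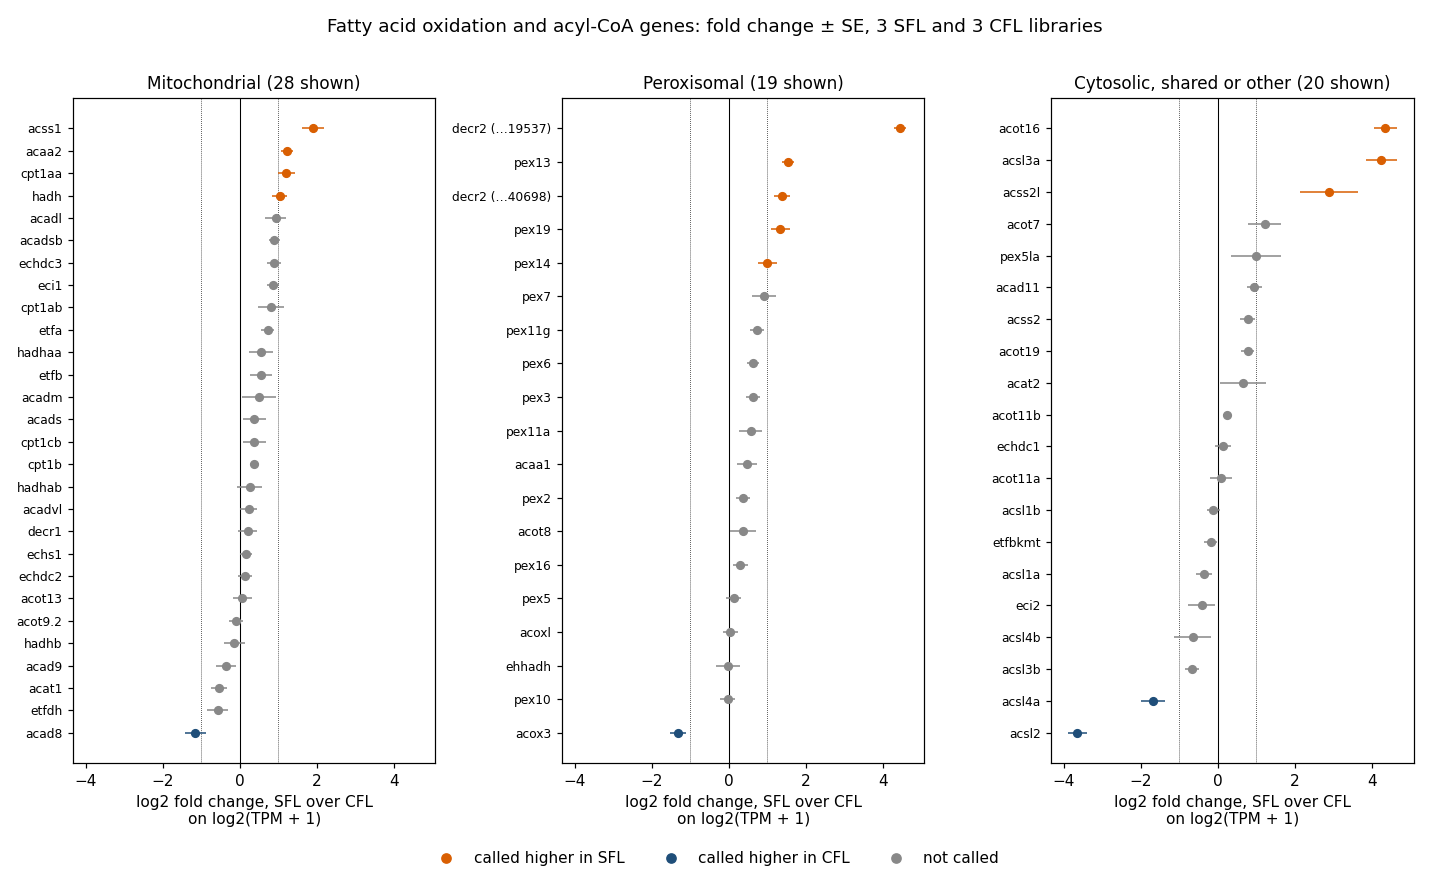
Log2 fold change, SFL over CFL, on log2(TPM + 1) for 67 of the 71 tested members, with bars of 1 SE from limma over 3 SFL and 3 CFL libraries and dotted lines at 2-fold. Orange points are 12 members called higher in SFL, blue points the 4 called higher in CFL, and grey points 51 not called, most of which lie right of 0.

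Of the 17 called members, 12 kept their call when each library was left out in turn. The 5 others, acad8, hadh, acss2l and pex14 among them, lost their calls without some libraries. Beside each of these named genes the log2 fold change and adjusted p without that library are given. Several members come as fish duplicates (hadhaa and hadhab, acsl3a and acsl3b, the 2 genes named decr2), and reads that fit both copies were divided by estimation, so the split between such copies is uncertain.

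**Figure D2:**
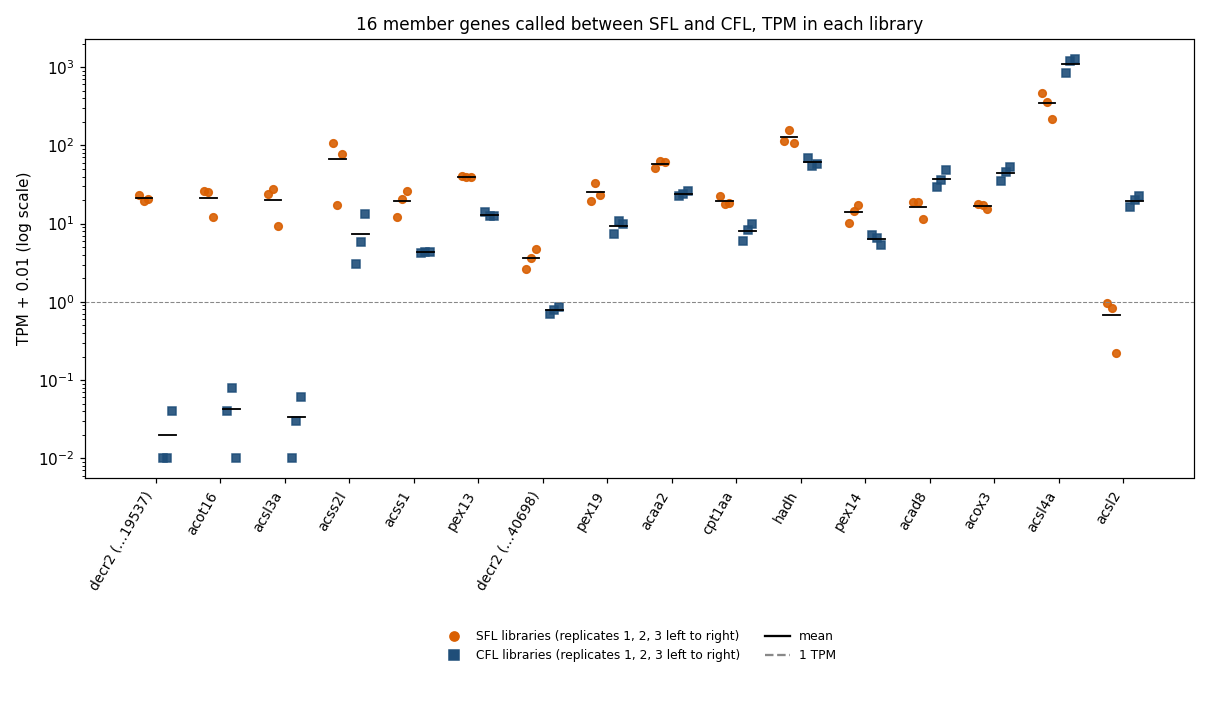
TPM + 0.01 on a log scale in each of the 3 SFL libraries (orange circles) and the 3 CFL libraries (blue squares) for 16 of the 17 called members, with the mean as a black bar and 1 TPM as a dashed line. The genes run by log2 fold change from decr2 (ENSAMXG00000019537) at 4.45 to acsl2 at -3.65, and the lines do not overlap for any of them.

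Among the activation genes, 3 acsl genes were called between the lines. The acsl enzymes join long-chain fatty acids to coenzyme A, and 8 acsl genes were members, of which 7 were tested. Of these, 1 (14.3%) was called higher in SFL, beside 11.7% of all genes tested, and 2 (28.6%) higher in CFL, beside 8.88%. The median log2 fold change of the 7 was -0.65. The most abundant member of all, acsl4a (ENSAMXG00000005608), whose mammalian counterpart prefers arachidonic acid, had 474, 363 and 220.2 TPM in SFL, against 835, 1195 and 1276 TPM in CFL. It averaged 352 ± 127 TPM in SFL and 1102 ± 234 TPM in CFL (SD, n = 3 each) and was lower in SFL (log2 fold change -1.69 with SE 0.32, adjusted p = 0.008). Every CFL library lay above every SFL library, and 3.13 times as much TPM was found in CFL on average.

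The next 2 acsl genes were nearly absent from 1 line each. For acsl2 (ENSAMXG00000007279) the values were 0.95, 0.82 and 0.21 TPM in SFL, against 16.3, 20 and 22.4 TPM in CFL, a gene under 1 TPM in SFL (log2 fold change -3.65 with SE 0.25, adjusted p = 0.00013). For acsl3a (ENSAMXG00000016188) they were 23.97, 27.8 and 9.19 TPM in SFL, against 0, 0.02 and 0.05 TPM in CFL, and it was called higher in SFL (log2 fold change 4.25 with SE 0.39, adjusted p = 0.00047). Its duplicate acsl3b had 14.6, 16.04 and 19.7 TPM in SFL, against 29.3, 29.1 and 23.7 TPM in CFL, in the opposite order and without overlap, with an adjusted p below 0.05 but less than 2-fold (log2 fold change of -0.68 ± 0.19 SE, adjusted p = 0.031). In mammals ACSL3 sits on the endoplasmic reticulum and lipid droplets. acsl3a exceeded acsl3b in SFL replicates 1 and 2, at ratios of 1.64 and 1.73, and not in SFL replicate 3, at 0.47. The others were spread over both lines. acsl4b had 55.5, 18.9 and 28.3 TPM in SFL, against 31.8, 45.3 and 83.8 TPM in CFL, with overlap, and acsl1a, acsl1b and acsl5 reached at most 1.25 TPM in any library.

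Summed over the 8 acsl genes, TPM was 570, 427 and 279 in the SFL libraries, against 915, 1290.4 and 1407 in the CFL libraries, without overlap. acsl4a made up 78.96% to 84.99% of that sum in SFL and 90.7% to 92.6% in CFL. Without acsl4a the sums were 95.85, 64.1 and 58.65 TPM in SFL, against 79.1, 95.8 and 131 TPM in CFL, and the lines overlapped. The totals were thus apart with acsl4a and not without it.

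**Figure D3:**
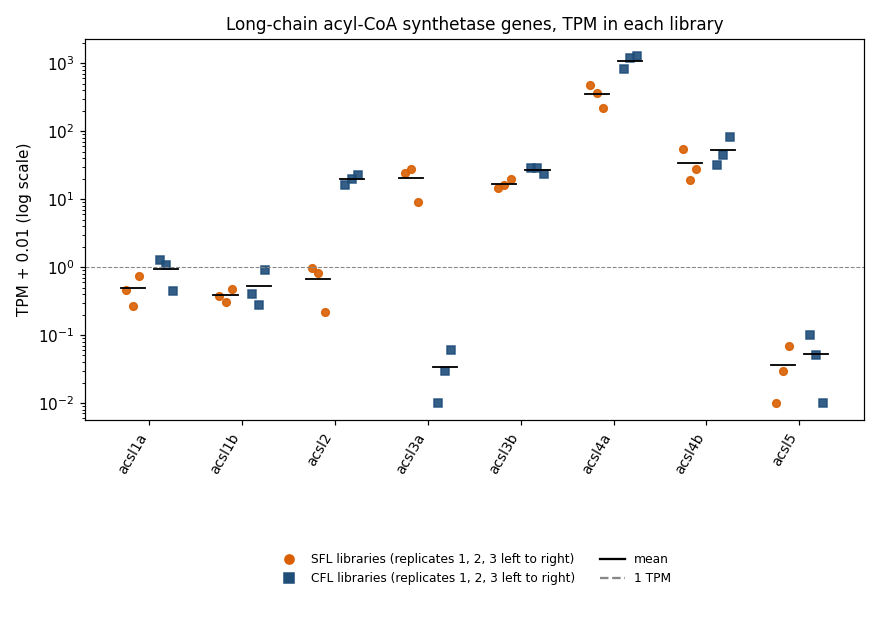
TPM + 0.01 on a log scale for the 8 acsl genes in each of the 3 SFL libraries (orange circles) and 3 CFL libraries (blue squares), with means as black bars and 1 TPM as a dashed line. acsl4a is the highest in all libraries, acsl2 lies under 1 TPM in SFL alone, and acsl3a lies under 0.1 TPM in CFL alone.

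Entry into mitochondria was represented by the cpt1 family, whose liver form makes the carnitine ester at the outer membrane, the regulated step of the path. Its 4 genes were placed in mitochondria by name, and whether cpt1cb acts at this step was not examined. Of the 4, 1 (25%) was called higher in SFL, beside 11.7% of all genes tested, and none higher in CFL, beside 8.88%. The median log2 fold change of the 4 was 0.60. cpt1aa (ENSAMXG00000007601), a copy of the liver form, had 22.5, 17.8 and 18.3 TPM in SFL, against 5.95, 8.21 and 9.86 TPM in CFL. It averaged 19.5 ± 2.56 TPM in SFL and 8.01 ± 1.96 TPM in CFL (SD, n = 3 each) and was called higher in SFL (log2 fold change 1.21 with SE 0.22, adjusted p = 0.0073), 2.44-fold in mean TPM. The call was kept without any single library, while replicates 2 and 3 alone gave 0.93 (adjusted p = 0.06). The duplicate cpt1ab had 8.9, 13.5 and 4.99 TPM in SFL, against 3.75, 4.58 and 4.92 TPM in CFL, apart but not called (log2 fold change of 0.82 ± 0.33 SE, adjusted p = 0.099). cpt1cb overlapped between the lines, and cpt1b reached at most 0.54 TPM. Over the 4 genes the summed TPM was 40.02, 41.7 and 42.0 in SFL, against 18.7, 22.3 and 22.5 in CFL. cpt1cb made up 20.8% to 44.1% of that sum in SFL and 34.1% to 47.9% in CFL.

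The 7 mitochondrial acyl-CoA dehydrogenases include enzymes that start each round on chains of different length and enzymes of branched-chain amino acid breakdown. The 7 gave no call for SFL, beside 11.7% of all genes tested, and 1 (14.3%) for CFL, beside 8.88%. Their median log2 fold change was 0.38. acadvl, for very long chains, had 99.4, 86.05 and 60.8 TPM in SFL, against 66.3, 63.7 and 74.9 TPM in CFL, and the lines overlapped (log2 fold change of 0.24 ± 0.22 SE, adjusted p = 0.42). acadm, for medium chains and the most abundant of the group, had 142, 101.8 and 129 TPM in SFL, against 74.1, 50.05 and 177 TPM in CFL, and CFL replicate 3 alone stood above every SFL library. Its log2 fold change was 0.50 (adjusted p = 0.41), and without CFL replicate 3 it was 1.004 (adjusted p = 0.043), so that 1 library decided whether it was called. acadl, a long-chain form, had 170.2, 138 and 90.3 TPM in SFL, against 60.95, 62.1 and 79.4 TPM in CFL. Its lines were apart, with a fold just under 2 (log2 fold change of 0.93 ± 0.26 SE, adjusted p = 0.034).

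The enzymes of branched-chain amino acid breakdown in this group had opposite signs. acad8 (ENSAMXG00000003161), which in mammals handles the valine intermediate isobutyryl-CoA, had 18.7, 18.7 and 11.4 TPM in SFL, against 29.1, 35.6 and 47.8 TPM in CFL. It was lower in SFL (log2 fold change -1.16 with SE 0.27, adjusted p = 0.018), the only mitochondrial member called in that direction. That call was lost without SFL replicate 3, at -0.94 (adjusted p = 0.026), without CFL replicate 2, at -1.18 (adjusted p = 0.064), and without CFL replicate 3, at -0.97 (adjusted p = 0.058). acadsb, for short branched chains, had 35.1, 36.3 and 35.2 TPM in SFL, against 17.8, 18.2 and 19.7 TPM in CFL, with little spread within a line. The lines were apart and the fold was under 2 (log2 fold change of 0.90 ± 0.15 SE, adjusted p = 0.0045). For acads and acad9 the lines overlapped.

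Electron transfer from these dehydrogenases runs over etfa and etfb, the subunits of 1 flavoprotein, and etfdh, which passes electrons to ubiquinone. None of the 3 was called in either direction, beside 11.7% of all genes tested called higher in SFL and 8.88% higher in CFL. etfa, the most abundant of them, had 246, 277 and 207 TPM in SFL, against 156, 138 and 144 TPM in CFL, apart and under 2-fold (log2 fold change of 0.73 ± 0.17 SE, adjusted p = 0.017). etfb had 46.2, 45.3 and 23.4 TPM in SFL, against 26.3, 23.4 and 24.4 TPM in CFL, where SFL replicate 3 lay within the CFL range (log2 fold change of 0.55 ± 0.28 SE, adjusted p = 0.17). etfdh had 70.8, 79.2 and 41.5 TPM in SFL, against 79.2, 93.2 and 105 TPM in CFL. Its CFL libraries were all above its SFL libraries, only just so for CFL replicate 1 and SFL replicate 2, and it was not called (log2 fold change of -0.57 ± 0.27 SE, adjusted p = 0.15). The TPM ratio of etfdh to etfa was 0.29, 0.29 and 0.20 in SFL, against 0.51, 0.68 and 0.73 in CFL. The ratio of etfa to etfb was 5.31, 6.11 and 8.85 in SFL, against 5.91, 5.90 and 5.88 in CFL, so that the subunit ratio of SFL lay on both sides of that of CFL.

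The middle steps, from hydratase to reductase, held 9 members, of which 1 (11.1%) was called higher in SFL, beside 11.7% of all genes tested. That was hadh (ENSAMXG00000010252), the hydroxyacyl-CoA dehydrogenase for short and medium chains, with 115, 156 and 109 TPM in SFL, against 69, 54.8 and 58.5 TPM in CFL. It averaged 127 ± 25.8 TPM in SFL and 60.8 ± 7.38 TPM in CFL (SD, n = 3 each), and was called higher in SFL (log2 fold change 1.04 with SE 0.20, adjusted p = 0.0085). It lies at the edge of the 2-fold limit, and the call was lost without SFL replicate 2, at 0.88 (adjusted p = 0.018), without CFL replicate 2, at 0.97 (adjusted p = 0.047), and with median-ratio scaling, at 0.95 (adjusted p = 0.0095). The isomerase eci1 and the hydratase relative echdc3 were also apart between the lines, under 2-fold (log2 fold change of 0.86 ± 0.16 SE, adjusted p = 0.0072 and log2 fold change of 0.88 ± 0.18 SE, adjusted p = 0.0098).

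The trifunctional protein, which carries out the last steps on long chains, was among the most abundant members, and none of its 3 genes separated the lines. Its beta subunit hadhb had 209.9, 241 and 121 TPM in SFL, against 194, 202 and 210 TPM in CFL, with overlap (log2 fold change of -0.14 ± 0.27 SE, adjusted p = 0.71). Of its alpha subunit copies, hadhab had 259.5, 249.6 and 120.4 TPM in SFL, against 187, 161 and 153 TPM in CFL and hadhaa had 30.7, 41.3 and 17.9 TPM in SFL, against 21.2, 16.7 and 19.1 TPM in CFL. In all 3 genes SFL replicates 1 and 2 were higher than SFL replicate 3, which lay below the CFL mean, and the sign for hadhb turned without that library, to 0.16 (adjusted p = 0.42). The TPM ratio of hadhaa plus hadhab to hadhb was 1.38, 1.21 and 1.14 in SFL, against 1.07, 0.88 and 0.82 in CFL, without overlap. hadhb and hadhaa were the only members listed next to each other in the RefSeq annotation of the AstMex3_surface assembly, which held 69 of the 72 symbols. echs1, the short-chain hydratase, had 48.2, 54.6 and 42.2 TPM in SFL, against 43.2, 42.5 and 43.4 TPM in CFL, with overlap (log2 fold change of 0.16 ± 0.16 SE, adjusted p = 0.48).

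The thiolases close each round, and the 2 mitochondrial ones had opposite signs. acaa2 (ENSAMXG00000035892), the general thiolase of β-oxidation, had 51.2, 62.4 and 61.4 TPM in SFL, against 22.5, 23.7 and 26.5 TPM in CFL. It was called higher in SFL, 2.41-fold in mean TPM (log2 fold change 1.23 with SE 0.16, adjusted p = 0.0021), and kept the call without any single library. acat1, which works on acetoacetyl-CoA in ketone body and isoleucine metabolism, had 23.01, 28.3 and 16.9 TPM in SFL, against 31.8, 33.3 and 33.7 TPM in CFL, with all CFL libraries above all SFL libraries and no call (log2 fold change of -0.54 ± 0.21 SE, adjusted p = 0.091). The cytosolic acat2, which starts sterol synthesis, had 287, 103 and 71.5 TPM in SFL, against 49.6, 73.7 and 149.97 TPM in CFL, with SFL replicate 1 far above the others of its line and overlap between the lines (log2 fold change of 0.64 ± 0.59 SE, adjusted p = 0.43).

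Acetyl-CoA synthetases make acetyl-CoA from free acetate. The 1 mitochondrial gene of this family and 1 of the 2 others were called higher in SFL, beside 11.7% of all genes tested. None was called higher in CFL, beside 8.88%. The mitochondrial acss1 (ENSAMXG00000002359) had 12.2, 20.4 and 26.1 TPM in SFL, against 4.19, 4.3 and 4.39 TPM in CFL. The CFL values lay close together, and acss1 was called higher in SFL (log2 fold change 1.89 with SE 0.28, adjusted p = 0.0032), 4.55-fold in mean TPM. acss2l (ENSAMXG00000011998), a relative of the cytosolic form, had 107, 17.2 and 78.03 TPM in SFL, against 3.01, 5.82 and 13.1 TPM in CFL. The lines were apart but both spread widely, and its log2 fold change of 2.89 had an SE of 0.75 (adjusted p = 0.025). Leaving out any of SFL replicates 1 and 3 and CFL replicates 1 and 2 ended that call, at 2.38 (adjusted p = 0.066), 2.61 (adjusted p = 0.061), 2.45 (adjusted p = 0.088) and 2.84 (adjusted p = 0.082). acss2 was apart between the lines with a fold under 2 (log2 fold change of 0.78 ± 0.20 SE, adjusted p = 0.024).

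Thioesterases undo activation by splitting acyl-CoA, and 1 of the 7 not placed in peroxisomes was called higher in SFL, beside 11.7% of all genes tested. acot16 (ENSAMXG00000005831) had 26.02, 25.1 and 12.2 TPM in SFL, against 0.03, 0.07 and 0 TPM in CFL, near 0 in CFL, and was called higher in SFL (log2 fold change 4.35 with SE 0.30, adjusted p = 0.00015). acot7, the most abundant thioesterase, had 97.1, 74.4 and 33.1 TPM in SFL, against 18.3, 27.99 and 35.02 TPM in CFL. SFL replicate 3 lay within the CFL range and acot7 was not called (log2 fold change of 1.21 ± 0.43 SE, adjusted p = 0.068), although it was without that library, at 1.66 (adjusted p = 0.0092). Where values were near 0 in 1 line, the fold change hung on the pseudocount. With a pseudocount of 0.1, log2 fold changes were 7.27 for acot16, 7.24 for acsl3a, 7.60 for decr2 (ENSAMXG00000019537) and -4.87 for acsl2, in the same directions.

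The other members of these roles gave no call. acot19 and acad11, a dehydrogenase found in both organelles in mammals, had all SFL libraries above all CFL libraries. They were 2.46-fold and 2.25-fold higher in mean TPM but short of 2-fold on log2(TPM + 1), where low values are shrunk (log2 fold change of 0.77 ± 0.18 SE, adjusted p = 0.016, and log2 fold change of 0.95 ± 0.20 SE, adjusted p = 0.012). Both were called at a pseudocount of 0.1. For etfbkmt, a methyltransferase of etfb, all CFL libraries lay above all SFL libraries by little (log2 fold change of -0.19 ± 0.17 SE, adjusted p = 0.41). The lines overlapped for decr1, echdc1, echdc2, eci2, acot9.2, acot11a, acot11b, acot13 and pex5la. Their log2 fold changes ran from -0.42 for eci2 to 0.99 for pex5la, a gene at 7.23 TPM in SFL replicate 1 and under 1 TPM in all others.

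Over the 28 mitochondrial members, 4 (14.3%) were called higher in SFL, beside 11.7% of all genes tested, and 1 (3.57%) higher in CFL, beside 8.88%, with a median log2 fold change of 0.38. All SFL libraries stood above all CFL libraries for 11 (39.3%), beside 29.8% of all genes. The reverse held for 3, beside 23.1% of all genes. The summed TPM was 1896, 1998 and 1402 in SFL, against 1301, 1229 and 1461 in CFL. SFL replicate 3 thus fell among the CFL libraries. It was the lowest of the SFL libraries for 19 of the 28 (67.9%), where it was so for 32.3% of all genes tested. CFL replicate 3 was the highest of its line for 17 of the 28 (60.7%), beside 29.9% of all genes, and for 7 of 7 acyl-CoA dehydrogenases. Over the stellate and fibroblast markers, the summed level was 347, 828 and 1453 TPM in SFL replicates 1 to 3, against 1294, 1288 and 665 TPM in CFL replicates 1 to 3. This sum, mostly col1a2, col1a1a and acta2, was thus highest of SFL and lowest of CFL in these same libraries. Of its 9 genes, 4 had at least 1 TPM in all SFL libraries and 6 in all CFL libraries, and hand2 was at 0 in SFL. The biliary sum had the same order, at 7876, 10312 and 11369 TPM in SFL, against 1798, 1744 and 1451 TPM in CFL. The hepatocyte, endothelial, and macrophage and blood sums did not. The part of these sums was not tested. Without SFL replicate 3, 18 members were called, 14 of them among the 17, with acadl, acot7, cpt1ab and pex7 gained. Without CFL replicate 3, 16 were called, 15 of them among the 17.

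**Figure D4:**
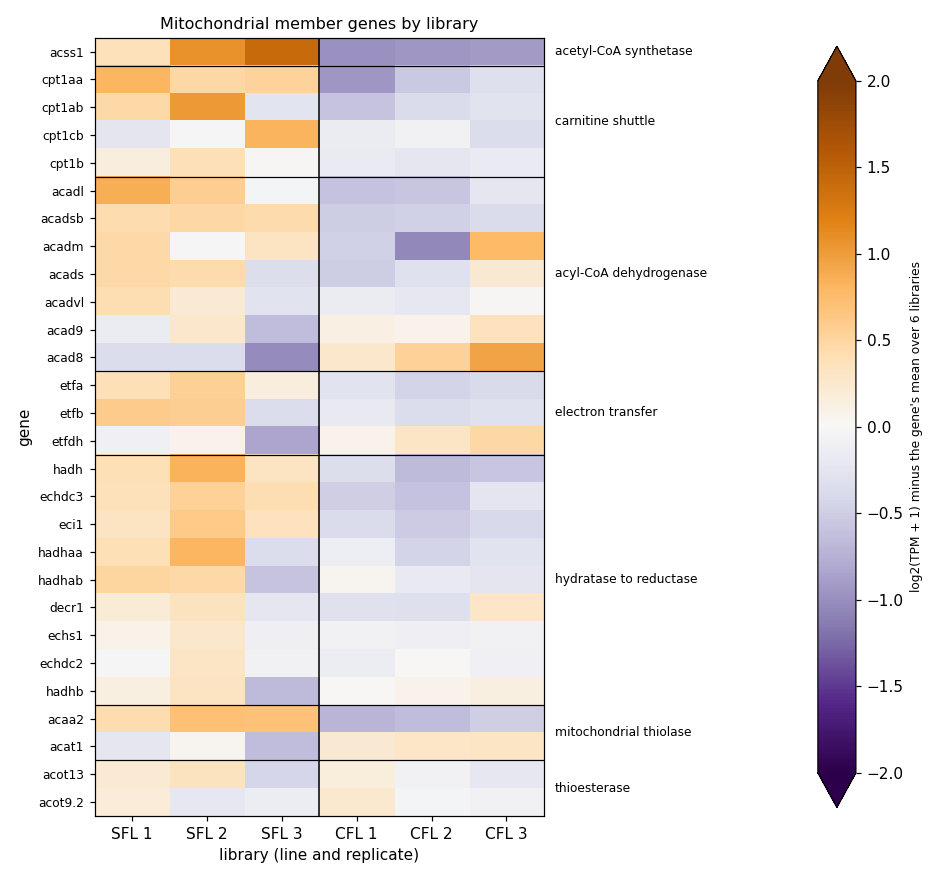
Log2(TPM + 1) minus the gene's mean over the 6 libraries for the 28 mitochondrial members, grouped by role, with SFL libraries left of the line and CFL libraries right of it. Orange is above the mean and purple below it, and the SFL replicate 3 column is the lowest of its line in 19 genes.

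Among the peroxisomal genes, 6 of 23 members (26.1%) were called higher in SFL, beside 11.7% of all genes tested, and 1 (4.35%) higher in CFL, beside 8.88%, and the median log2 fold change was 0.57. All SFL libraries stood above all CFL libraries for 12 of the 23 (52.2%), beside 29.8% of all genes. The reverse held for 1, beside 23.1% of all genes. The summed TPM was 329.5 in SFL replicate 1, 382 in SFL replicate 2 and 328 in SFL replicate 3, against 219.96, 247 and 249 in CFL replicates 1 to 3, without overlap. The set held 8 genes of oxidation (3 higher in SFL, 1 higher in CFL) and 15 peroxins (3 higher in SFL, none higher in CFL).

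Acyl-CoA oxidases open the peroxisomal path. acox3 (ENSAMXG00000010946), which in mammals acts on branched chains, had 18, 17.4 and 15.2 TPM in SFL, against 34.6, 45.6 and 52.7 TPM in CFL. It was lower in SFL (log2 fold change -1.32 with SE 0.20, adjusted p = 0.0035) and kept the call without any single library. The related acoxl overlapped between the lines.

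Beside the main steps of this path, decr2 encodes the peroxisomal reductase that removes extra double bonds. The gene ENSAMXG00000019537 had 22.97, 19.6 and 20.6 TPM in SFL, against 0, 0 and 0.03 TPM in CFL, and was called higher in SFL (log2 fold change 4.45 with SE 0.16, adjusted p = 2.1e-05), the smallest adjusted p among the members. The other decr2 gene, ENSAMXG00000040698, had 2.61, 3.61 and 4.78 TPM in SFL, against 0.69, 0.77 and 0.85 TPM in CFL, and was also called higher in SFL (log2 fold change 1.37 with SE 0.20, adjusted p = 0.0031). Both were apart with little spread in CFL. Of the later steps, the lines overlapped for ehhadh, acaa1 and acot8. ehhadh, the bifunctional enzyme, had 8.96, 21.7 and 16.7 TPM in SFL, against 15.04, 14.1 and 15.9 TPM in CFL, with the lowest and the highest values both in SFL (log2 fold change of -0.01 ± 0.31 SE, adjusted p = 0.98). acaa1, the peroxisomal thiolase, had 21.2, 20.7 and 11.9 TPM in SFL, against 10.96, 14.2 and 11.96 TPM in CFL, with SFL replicate 3 inside the CFL range (log2 fold change of 0.47 ± 0.26 SE, adjusted p = 0.20).

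Peroxins import proteins into the peroxisome and form its membrane. Of 15 peroxin genes, 9 (60%) had all SFL libraries above all CFL libraries, beside 29.8% of all genes. None had the reverse, beside 23.1% of all genes, and the median log2 fold change was 0.63. pex13 (ENSAMXG00000010724), part of the docking complex for imported proteins, had 41.2, 39.4 and 38.9 TPM in SFL, against 13.98, 12.5 and 12.6 TPM in CFL. It averaged 39.8 ± 1.21 TPM in SFL and 13.02 ± 0.84 TPM in CFL (SD, n = 3 each) and was called higher in SFL, 3.06-fold in mean TPM (log2 fold change 1.54 with SE 0.15, adjusted p = 0.00057). pex14 (ENSAMXG00000042447), its partner in docking, had 10.2, 14.5 and 17.2 TPM in SFL, against 7.21, 6.61 and 5.3 TPM in CFL, just past 2-fold (log2 fold change 1.004 with SE 0.24, adjusted p = 0.019). The pex14 call was lost without SFL replicates 2 or 3, at 0.96 (adjusted p = 0.053) and 0.85 (adjusted p = 0.031), without CFL replicates 2 or 3, at 1.03 (adjusted p = 0.066) and 0.89 (adjusted p = 0.062), and with median-ratio scaling, at 0.92 (adjusted p = 0.017). pex19 (ENSAMXG00000042534), the chaperone of peroxisomal membrane proteins, had 19.4, 32.9 and 23.5 TPM in SFL, against 7.43, 10.6 and 9.77 TPM in CFL, and was called higher in SFL (log2 fold change 1.33 with SE 0.25, adjusted p = 0.0074) whichever library was left out.

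The most abundant peroxin, pex3, which is the membrane anchor for pex19, had 32.7, 43.8 and 45.2 TPM in SFL, against 25.5, 26.1 and 25.5 TPM in CFL, apart and under 2-fold (log2 fold change of 0.63 ± 0.18 SE, adjusted p = 0.036). pex5, the receptor that carries enzymes to the docking complex, had 24.8, 20.1 and 25.7 TPM in SFL, against 20.02, 18.9 and 25.5 TPM in CFL, with overlap (log2 fold change of 0.13 ± 0.19 SE, adjusted p = 0.62). pex6, which helps to pull the receptor back out, and pex11g, a division factor, reached adjusted p = 0.022 and 0.025 at log2 fold changes of 0.63 and 0.73. Of the ring-finger peroxins, pex2 had a log2 fold change of 0.37 with the lines apart and pex10 one of -0.03 with overlap, and neither was called. pex7, the receptor for a rarer import signal, had 5.29, 5.88 and 3.28 TPM in SFL, against 2.57, 2.88 and 0.99 TPM in CFL, apart and not called (log2 fold change of 0.92 ± 0.32 SE, adjusted p = 0.066). The lines overlapped for pex11a and pex16.

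Genes that work beside the members were taken from a list of 42, chosen with earlier results of these data known. Of the 41 tested, 11 (26.8%) were called higher in SFL, beside 11.7% of all genes tested, and 2 (4.88%) higher in CFL, beside 8.88%, with a median log2 fold change of 0.52. The 13 peroxisomal partners gave 6 of the calls for SFL and 1 of those for CFL. cat, catalase, which breaks down the hydrogen peroxide made by the oxidases, had 53.4, 76.8 and 67.9 TPM in SFL, against 9.84, 12.1 and 13.5 TPM in CFL, 5.595-fold in mean TPM (log2 fold change 2.38 with SE 0.21, adjusted p = 0.00037). hsd17b4, the bifunctional enzyme for branched and very long chains, had 83, 63.3 and 52.9 TPM in SFL, against 15.4, 15.4 and 24.03 TPM in CFL (log2 fold change 1.81 with SE 0.25, adjusted p = 0.0025). scp2b, a copy of the thiolase for branched chains, had 86.2, 88.5 and 84.8 TPM in SFL, against 33.6, 29.4 and 29.1 TPM in CFL (log2 fold change 1.47 with SE 0.15, adjusted p = 0.00066). All 3 were apart between the lines. The other copy scp2a had all CFL libraries above all SFL libraries and was not called (log2 fold change of -0.29 ± 0.18 SE, adjusted p = 0.24).

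The first enzyme of phytanic acid breakdown followed the same order, and phyh had 28.1, 36.8 and 30.9 TPM in SFL, against 11.1, 9.74 and 10.2 TPM in CFL (log2 fold change 1.53 with SE 0.17, adjusted p = 0.0011). slc27a2a, a very long-chain acyl-CoA synthetase, had 4.60, 12.6 and 6.86 TPM in SFL and was listed at 0 in all CFL libraries (adjusted p = 0.00072). In the other direction nudt19, which degrades coenzyme A and its esters, had 2.16, 2.11 and 2.2 TPM in SFL, against 6.15, 5.93 and 6.61 TPM in CFL, and was lower in SFL (log2 fold change -1.19 with SE 0.16, adjusted p = 0.002). amacr, the racemase for branched chains, also had all CFL libraries above all SFL libraries, under 2-fold (log2 fold change of -0.82 ± 0.18 SE, adjusted p = 0.013). abcd2, abcd3a, abcd4 and acbd5a were not called.

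**Figure D5:**
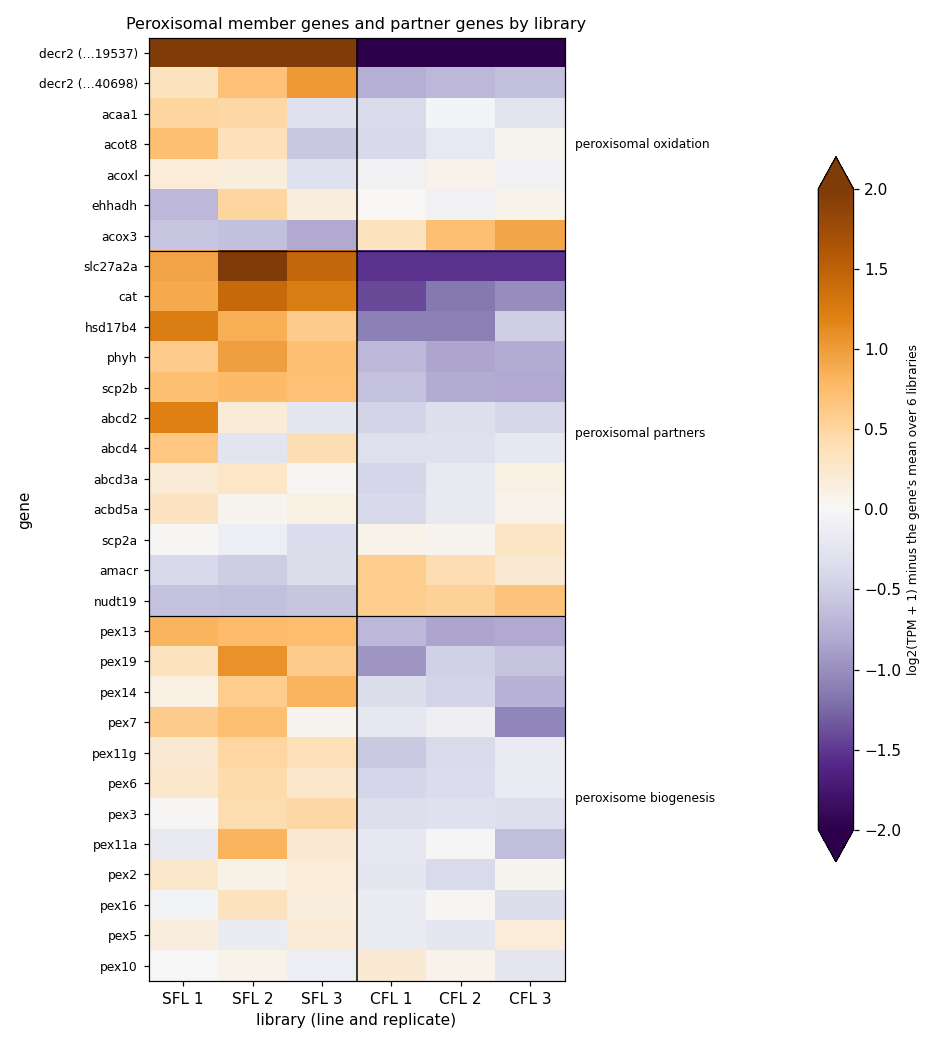
Log2(TPM + 1) minus the gene's mean over the 6 libraries for 7 genes of peroxisomal oxidation, 12 partner genes and 12 peroxins, with SFL libraries left of the line and CFL libraries right of it. Orange is above and purple below the mean, and the colour ends at 2 in either direction. acox3, amacr, nudt19 and, by less, scp2a run opposite to most of the others.

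Of 6 partners that move or adjust carnitine and coenzyme A, none was called higher in CFL, beside 8.88% of all genes tested. In the other direction 3 (50%) were called higher in SFL, beside 11.7%. They were the carnitine acyltransferases crata and cratb, for short chains, and crot, which releases medium chains from the peroxisome. crot had 7.44, 11.4 and 9.41 TPM in SFL, against 2.06, 1.89 and 2.24 TPM in CFL (log2 fold change 1.75 with SE 0.20, adjusted p = 0.0012). crata had 52.7, 54.4 and 24.7 TPM in SFL, against 8.38, 11.96 and 14.7 TPM in CFL (log2 fold change 1.77 with SE 0.36, adjusted p = 0.0099), and replicates 2 and 3 alone gave 1.40 (adjusted p = 0.094). cratb had 137, 87.1 and 45.4 TPM in SFL, against 26.6, 29.95 and 31.03 TPM in CFL (log2 fold change 1.46 with SE 0.38, adjusted p = 0.026), and that call was lost without SFL replicate 2, at 1.41 (adjusted p = 0.073), and without CFL replicates 1, 2 or 3, at 1.39 (adjusted p = 0.087), 1.48 (adjusted p = 0.081) and 1.501 (adjusted p = 0.068). In all 3 genes the lines were apart. The carnitine carrier slc25a20 had 49.7, 45.1 and 18.3 TPM in SFL, against 14.3, 14.02 and 19.01 TPM in CFL, where SFL replicate 3 again lay within the CFL range and no call was made (log2 fold change of 1.099 ± 0.38 SE, adjusted p = 0.065).

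None of 4 ketone body genes was called in either direction, beside 11.7% of all genes tested higher in SFL and 8.88% higher in CFL. For bdh1, oxct1a and oxct1b, log2 fold changes ran from 0.21 to 0.71 and adjusted p from 0.055 to 0.46. Of 16 regulators and target genes, 15 were tested and 3 were called. Higher in SFL were 2 (13.3%), beside 11.7% of all genes tested, and higher in CFL was 1 (6.67%), beside 8.88%. These shares lay close to those of all genes. pparda, a copy of the fatty acid receptor PPAR delta, had 22.9, 22.1 and 14.9 TPM in SFL, against 1.12, 0.72 and 1.34 TPM in CFL, 18.8-fold in mean TPM (log2 fold change 3.34 with SE 0.24, adjusted p = 0.00016), with the lines apart. pdk4, a kinase that turns cells from glucose to fatty acid use, had 1.55, 2.24 and 4.95 TPM in SFL, against 0.67, 0.25 and 0.37 TPM in CFL (log2 fold change 1.37 with SE 0.32, adjusted p = 0.017), a low level, with the call lost without CFL replicate 2, at 1.28 (adjusted p = 0.071), or without CFL replicate 3, at 1.34 (adjusted p = 0.057). ppargc1b, a coactivator of mitochondrial genes, was lower in SFL (log2 fold change of -1.29 ± 0.32 SE, adjusted p = 0.022), and the call was lost without SFL replicate 3, at -0.94 (adjusted p = 0.01), and without CFL replicates 1, 2 or 3, at -1.20 (adjusted p = 0.082), -1.32 (adjusted p = 0.073) and -1.36 (adjusted p = 0.056). The liver receptor copies pparaa and pparab reached at most 2.66 TPM and were not called (log2 fold change of 0.35 ± 0.14 SE, adjusted p = 0.095 and log2 fold change of 0.18 ± 0.34 SE, adjusted p = 0.71).

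The lipid droplet coat gene plin2 varied widely among the SFL libraries. It had 448, 209 and 46.8 TPM in SFL, against 31.8, 30.1 and 62.2 TPM in CFL, with SFL replicate 3 inside the CFL range, and was not called (log2 fold change of 2.04 ± 0.78 SE, adjusted p = 0.086). fgf21, a fasting hormone of liver, had 31.3, 1.37 and 0.87 TPM in SFL, against 0.08, 0.07 and 0.29 TPM in CFL, apart but led by SFL replicate 1 and not called (log2 fold change of 2.19 ± 1.02 SE, adjusted p = 0.14). As with acat2 and acot7, SFL replicate 1, the earlier passage of that line, was the highest library for both. Over the 71 tested members, that library was the lowest of its line for 22, acss1 and pex14 among them. Over all 18489 genes tested it was the lowest for 8302. How often it was the highest was not counted, and acat2, plin2 and fgf21 were named after their values were seen. The part of passage was not tested.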

How the data were processed

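Bulk RNA-seq of 3 SFL and 3 CFL libraries was used. Groups, replicates and passages came from the sample labels. The methods describe RNA from adult tissues, while titles, library names and passages describe the lines. The libraries were treated as made from cultured cells of the lines. The submitters' processing notes name bcl2fastq 2.18, STAR 2.7.3a and RSEM, and the authors deposited TPM per Ensembl gene, with no scaling between libraries stated. The genome assembly is not given in the sources used here, so no coordinates were printed. TPM holds no counts, so the count test of the methods was replaced by limma 3.58.1 (lmFit, eBayes with a trend) in R 4.3.3 on log2(TPM + 1), over the 18489 genes that reached 0.2 TPM in any library. No counting error or detection floor can be given. P-values were adjusted over all tested genes by the Benjamini-Hochberg method, and an exact test of 3 against 3 libraries cannot go below 0.1. No more than 1 of 91 ribosomal protein genes was at 0 in any library. Tables were made in Python 3.11.15 with pandas 2.3.3 and numpy 2.4.6, and the limma fit was tested on simulated data.

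The members, their roles, the partner and marker lists were chosen with earlier results of these data known. Named in full were the called members, the member with the highest mean TPM in each of 10 roles, cpt1aa and the core enzymes of each step. Partner genes were given as counts with values for called ones. Members and partners named beyond this rule, such as acadsb, acadl, eci1, echdc3, acat1, acat2, acsl3b, acsl4b, acad11, acot19, etfbkmt, pex2, pex6, pex7, slc25a20, amacr, plin2 and fgf21, were chosen after their values were seen. Fits were repeated with pseudocounts of 0.1 and 0.5, without a filter, with a filter of 1 TPM reached in 3 libraries, after median-ratio scaling, without the trend, with the replicate number as a block, on replicates 2 and 3 (the later passages), with single libraries left out, and with calls at any fold. cpt2 and other genes without a matching row were not analysed here. Some members and partners are counted but not reported by name here. No sequence was used.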

Additional observations from a re-analysis of the deposited data

How the results depend on the processing

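Of 17 called members, all were called with no filter, with the stricter filter and with no trend, 17 of 20 calls were shared at a pseudocount of 0.1, and 15 were shared with median-ratio scaling. With 2 against 2 libraries of the later passages alone, 14 were called and 13 shared, with acad8, acss2l and cpt1aa among those lost. Without a fold threshold, 26 of the 71 tested members, 10 of them mitochondrial and 10 peroxisomal, were called higher in SFL, beside 19.5% of all genes. In the other direction 5 members were called higher in CFL, beside 15.2% of all genes. At a pseudocount of 0.1, 3187 of all tested genes (17.2%) were called higher in SFL, against 2168 at a pseudocount of 1, and 2492 (13.5%) higher in CFL, against 1642. The members called higher in SFL were 16 (22.5%) there, against 13 (18.3%). The single mitochondrial call for CFL (acad8) was 0 with the later passages alone, where acad8 was at -1.43 (adjusted p = 0.052), and ranged from 0 to 1 with each library left out. The deviations of same-numbered libraries from their line means had correlations of -0.22, 0.08 and -0.07. With 3 libraries per line these cannot decide whether same-numbered libraries were handled together. Replicate 1 was the earlier passage in both lines. With the replicate block, 15 members were called, with acad8 lost at -1.16 (adjusted p = 0.05029) and pex14 at 1.004 (adjusted p = 0.053), and the mitochondrial count for CFL was 0. Signs turned for hadhb, which ranged from -0.34 to 0.16 with each library left out. They turned as well for ehhadh, which ranged from -0.27 to 0.32 and was at 0.32 (adjusted p = 0.40) in the later passages, and neither gene was called. In the later passages alone they also turned for acat2 (-0.29), acot8 (-0.02), acot11a (-0.23), acoxl (-0.06) and pex10 (0.07), none of them called. Values in the report come from TPM, so how far depth limits the low genes is unknown. The planned promoter motif counts, with their alternative window, and protein ends were not run.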
